A study of Rattus norvegicus with 18 samples.

Results

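The comparison described here is that of forebrain from rat embryos at embryonic day 10 (E10) with forebrain at embryonic day 13 (E13), 4 of the 18 small RNA libraries of a developmental series of the rat cortex. The 4 libraries were chosen by their labels alone, as the libraries labelled forebrain at E10 and at E13. All of the animals were Sprague Dawley rats, no group carried a transgene or received a treatment, and the groups differ only in embryonic age. According to the study's methods the tissue of both ages was the cortex, freed of subcortical tissue and meninges. Each stage is 1 tissue sample, sequenced as 2 technical runs, and how many embryos went into a sample is not given in the sources used here. The runs of 1 RNA show the error of library making and sequencing but not the spread between embryos, so no test was made and no p-value is given. A second point of reference comes from newborn cortex (P0), the stage with 2 separate tissue samples, each also sequenced in 2 runs.

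MicroRNAs (miRNAs) are RNAs of about the size of a short primer that are cut from hairpin precursors by the nucleases Drosha and Dicer. Loaded onto an Argonaute protein, a miRNA pairs with messenger RNAs mainly through its seed, the bases at positions 2 to 8 from its 5′ end, and lowers their stability or translation. miRNAs with the same seed are expected to share targets, and many miRNA genes lie in clusters that are transcribed together. In the rat the neural tube closes around the earlier of these ages, when the forebrain wall is a sheet of dividing neuroepithelial cells, and the first cortical neurons are born around the later one.

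Each library lists every distinct read (tag) with its count. E10 gave 11043948 reads in run 1 and 16420636 in run 2, and E13 gave 7141578 and 12769251. The level of a miRNA is the number of its tags per 1000000 clean reads (TPM), so that 1 read is worth between 0.0609 and 0.14 TPM. Tags that fit a mature sequence made up 83% and 74.8% of the reads of the 2 E10 runs and 72.7% and 65% of those of the 2 E13 runs. E10 run 2 stood apart in the length of its tags. Tags of 18 to 21 nt were 12.8% of its reads, against 41.9% in E10 run 1, 56.5% in E13 run 1 and 37.1% in E13 run 2. Over the 108 miRNAs with at least 100 TPM in all 4 libraries, the median share of reads that reached the full mature length was 97.3% in E10 run 2 and 53.3%, 39.2% and 55.5% in the other libraries in the same order. Run 2 therefore compares a library of mostly full-length reads with one of shorter reads. The part of this in the differences was not tested beyond the other ways of counting tags given below, and each value is given run by run. Run 1 values are not free of run 2, since a tag was counted only when both runs of its stage held it. At E10, run 1 gave miR-540-3p 388 counted reads but 1695 with all of its tags, and miR-369-5p 619 but 1428.

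**Figure D1:**
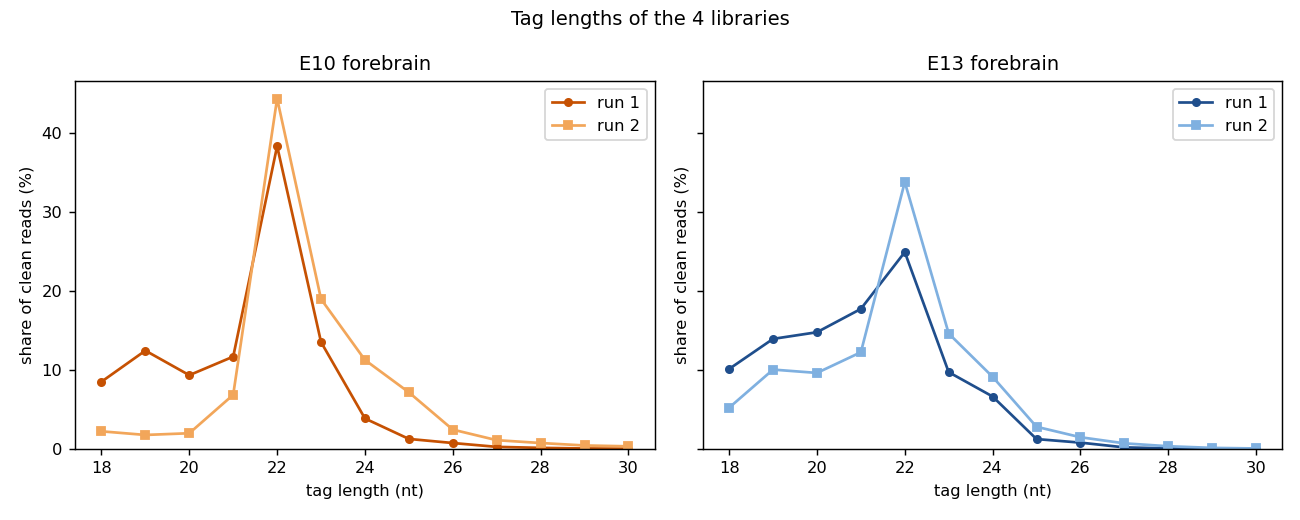
Share of clean reads (%) at each tag length from 18 to 30 nt in E10 forebrain (left) and E13 forebrain (right), with 1 line for each run. All 4 libraries peak at 22 nt, and E10 run 2 has few tags of 18 to 20 nt where the other 3 libraries have a broad shoulder.

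A miRNA was taken as measured when it reached 10 TPM in both runs of at least 1 stage, and as differing when E13 and E10 differed by at least 2-fold in the same direction in run 1 and in run 2, on the scale of TPM + 1. Of 793 mature sequences searched, 297 were measured. Of these, 16 were higher at E13 in both runs, which is 5.39% of those measured, and 54 were higher at E10, which is 18.2%. The 2 directions together came to 70 miRNAs or 23.6%. A further 115 miRNAs differed in opposite directions in the 2 runs, 32 of them by at least 2-fold each way. The median difference (log2 E13 minus E10) was −0.01 in run 1 and −0.94 in run 2, and the share of calls in each direction depends on the scaling: with median-of-ratios size factors, which shift the median difference by 0.36, 36 miRNAs were higher at E13 and 38 at E10.

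The error of these differences is large. The median size of the log2 difference between the 2 runs of the same tissue was 0.96 at E10 and 1.25 at E13, while the stages differed by a median size of 1.27 in run 1 and 1.25 in run 2. By the same rule, the 2 P0 tissue samples differed in 48 of 232 measured miRNAs, or 20.7%, a share close to that of E10 against E13. At 4-fold the shares were 9.09% between E10 and E13 (27 miRNAs) and 3.02% between the P0 samples (7 miRNAs). The first run of P0 sample 1 stood apart from the other P0 libraries, with 67% of its reads at 18 to 21 nt. In run 1 alone, which holds that library, 69.6% of P0 miRNAs and 60.5% of E10 and E13 miRNAs differed by 2-fold. In run 2 alone, which leaves it out but holds E10 run 2, the shares were 39.5% and 63.3%. Of the 70 differing miRNAs, 40 had a smaller difference (the lesser of the 2 runs) above the run-to-run differences of both stages. At P0 43 of the 70 were measured, and 9 of these also passed the rule between the 2 P0 samples, namely miR-323-3p, miR-369-5p and miR-411-5p of those higher at E13 and miR-99b-5p, miR-152-3p, miR-219a-5p, miR-376a-3p, miR-532-5p and miR-872-3p of those higher at E10. At 2-fold in both runs the share of differing miRNAs is thus near what 2 samples of the same age gave, and at 4-fold it is higher. The account below turns on the miRNAs that differ most.

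**Figure D2:**
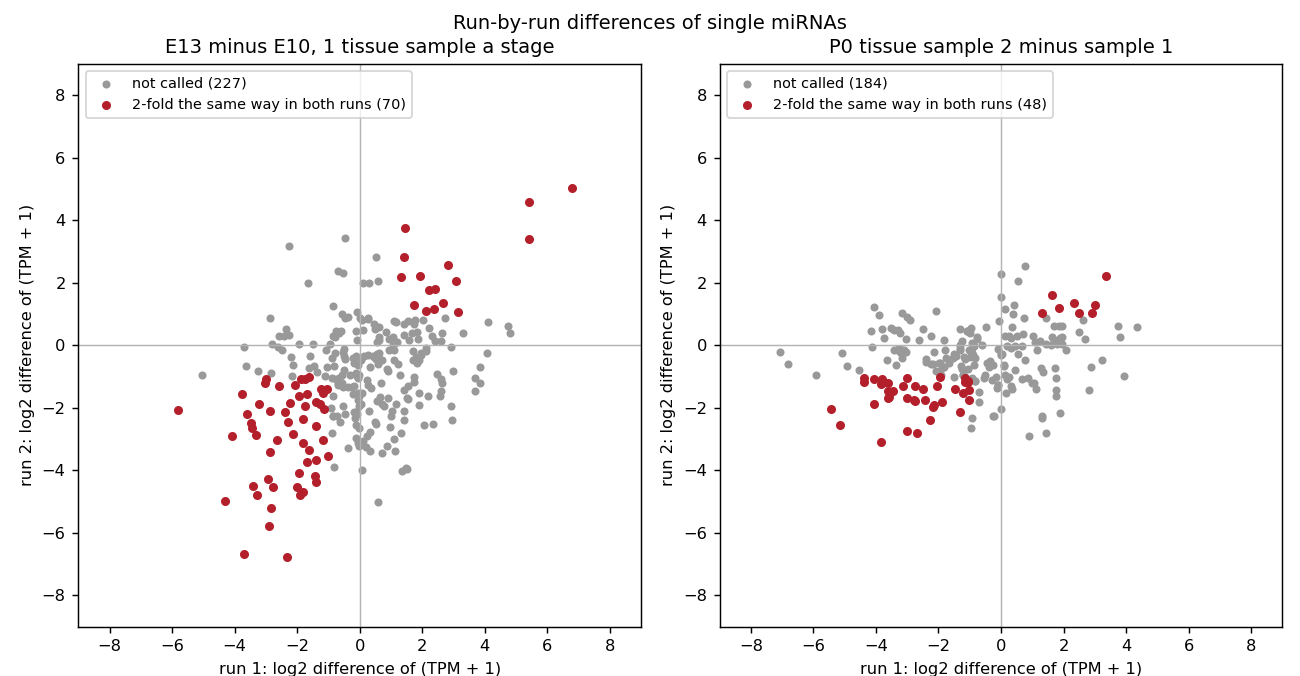
Log2 difference of TPM + 1 in run 1 (x axis) against run 2 (y axis), 1 point a miRNA. Left, E13 minus E10, where 70 of 297 miRNAs (red) passed 2-fold the same way in both runs, with miR-301b-3p below −4 in both runs and miR-1949 and miR-184 above 4. Right, the 2 P0 tissue samples, where 48 of 232 passed and none reached 4 in size in both runs.

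The mature sequences of the miRNAs on which the comparison turns are given here, from the RefSeq miRNA table on the rat assembly GRCr8, with the seed in capitals. The first 4 share 1 seed and were all higher at E10, and the next 4 share another.

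miR-181a-5p: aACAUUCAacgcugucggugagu
miR-181b-5p: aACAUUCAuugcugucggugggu
miR-181c-5p: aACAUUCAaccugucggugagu
miR-181d-5p: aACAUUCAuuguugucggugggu
miR-34b-5p: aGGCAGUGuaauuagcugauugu
miR-34c-5p: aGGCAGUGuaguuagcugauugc
miR-449a-5p: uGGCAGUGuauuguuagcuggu
miR-449c-5p: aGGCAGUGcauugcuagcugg
miR-301b-3p: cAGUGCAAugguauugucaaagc
miR-130b-3p: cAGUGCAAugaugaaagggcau
miR-532-5p: cAUGCCUUgaguguaggacugu
miR-219a-5p: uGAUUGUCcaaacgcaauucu
miR-33-5p: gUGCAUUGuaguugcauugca
miR-451-5p: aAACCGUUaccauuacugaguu
miR-9a-5p: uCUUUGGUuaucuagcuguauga
miR-184: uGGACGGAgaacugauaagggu
miR-206-3p: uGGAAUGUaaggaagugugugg
miR-1-3p: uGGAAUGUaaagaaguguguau
miR-411-5p: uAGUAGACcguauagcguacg
miR-672-5p: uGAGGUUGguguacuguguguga

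Among the miRNAs higher at E10, miR-301b-3p differed most by the lesser of its 2 runs. It is cut from a hairpin at chr11:97384033-97384110 (GRCr8, plus strand), beside that of miR-130b, whose seed it shares. Its level was 906 and 2263 TPM in the 2 runs of E10 and 44.5 and 70.2 TPM in those of E13. Both E10 values lay far above both E13 values, by 19.9-fold in run 1 and 31.8-fold in run 2, and the runs of 1 stage differed by 1.32 log2 units at E10 and 0.64 at E13. In tissue as a whole, fewer cells of a type and less RNA per cell cannot be told apart, here or in any result below. The neighbour miR-130b-3p gave 1701 and 2193 TPM at E10 but 2792 and 598 TPM at E13, opposite directions in the 2 runs, so that the 2 miRNAs of this pair of hairpins, 1 seed between them, did not move alike.

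miR-532-5p, from a cluster of 5 hairpins at chrX:17919185-17930726 (plus strand) within the span of the chloride transporter gene Clcn5, was at 536 and 1167 TPM at E10 and at 49.4 and 51.1 TPM at E13, a difference of 10.7-fold and 22.4-fold. 2 cluster mates were also higher at E10 in both runs. miR-501-3p went from 16.8 and 65.8 TPM to 1.82 and 7.13 TPM, and miR-362-3p from 99.1 and 31.2 TPM to 28.6 and 14.1 TPM. Of 5 mature forms of this cluster that were measured, 3 thus differed, all the same way, and their 5 run differences had medians of −1.76 and −3.04. Of these only miR-532-5p kept its call under each of 8 other ways of counting, scaling and pairing the runs.

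miR-219a-5p, best known from maturing oligodendrocytes, stood at 709 and 1424 TPM at E10 and at 91.3 and 72.9 TPM at E13. That is 7.7-fold and 19.3-fold higher at the earlier stage, with no overlap of the runs. miR-219a-1-3p, the 3p arm of Mir219a1, was also higher at E10, at 701 and 1581 TPM against 266 and 452 TPM. That call ended with median-of-ratios scaling and with crossed runs. miR-219a-2-3p, by contrast, gave 28.1 and 89.6 TPM at E10 and 487 and 74.8 TPM at E13, and its runs went in opposite directions.

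miR-33-5p lies within the span of Srebf2, the gene of a regulator of cholesterol synthesis, at chr7:115593952-115594020 (plus strand). Its levels were 903 and 3533 TPM at E10 against 126 and 94 TPM at E13, a difference of 7.11-fold and 37.2-fold. The 2 E10 runs differ from each other by 1.97 log2 units, less than the lesser of the stage differences, 2.83. The other miRNAs among the 10 largest differences in this direction were miR-144-3p, miR-34b-5p, miR-99a-3p, miR-363-5p, miR-181b-5p and a hairpin candidate of the study, Candidate 22. Several of them were near the limit of counting at E13. miR-99a-3p rested there on 4 and 17 reads (0.56 TPM, exact binomial 95% interval 0.153 to 1.43, and 1.33 TPM, 0.776 to 2.13), against 10.6 and 127 TPM at E10. miR-34b-5p had 20 and 7 reads at E13 (2.8 TPM, 1.71 to 4.33, and 0.548 TPM, 0.22 to 1.13), against 36.4 and 42 TPM. Such intervals cover counting error only, since copies made by PCR are not independent molecules. miR-363-5p went from 37.3 and 63.8 TPM to 1.26 and 7.75 TPM, and Candidate 22 from 21.7 and 20.7 TPM to 2.1 and 1.02 TPM. For these 4 the lowest E10 run was above the highest E13 run, while miR-181b-5p, described below with its family, overlapped.

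In all, 11 miRNAs were higher at E10 under each of the 8 other ways: miR-301b-3p, miR-532-5p, miR-219a-5p and miR-33-5p above, miR-449a-5p and miR-451-5p, described below with their groups, and 5 more. miR-92a-1-5p, the passenger strand of miR-92a, was at 369 and 512 TPM at E10 and at 29.3 and 112 TPM at E13. miR-331-3p was at 270.4 and 1153 TPM against 69.2 and 67.5 TPM. miR-29c-3p, whose family represses collagen genes, was at 162 and 256 TPM against 60.8 and 42.3 TPM. The E10 runs of these 3 lay above the E13 runs, with the larger difference in run 1 for the first and in run 2 for the other two. miR-324-5p was at 88.6 and 362 TPM against 32.3 and 19 TPM, and miR-145-5p, known from smooth muscle, at 41.7 and 213 TPM against 15.1 and 9.4 TPM. In both, run 2 gave a difference of 18.1-fold or more and run 1 one of 2.65-fold or 2.69-fold.

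Most other calls ended under at least 1 of the 8 ways. With identical tags only 175 miRNAs were measured, against 297 before, so a call could also end because the level fell short of 10 TPM. The measured members of the erythroid and blood list fell from 4 to 1, and those of the miR-34 and miR-449 list from 4 to 2. Of the miRNAs described here, the restriction to identical tags ended the calls of miR-20b-5p, miR-32-5p, miR-34b-5p, miR-99a-3p, miR-137-5p, miR-143-5p, miR-144-3p, miR-144-5p, miR-181c-3p, miR-181c-5p, miR-204-3p, miR-362-3p, miR-363-5p, miR-376a-3p, miR-382-5p, miR-501-3p and Candidate 22 at E10, and of miR-1949, miR-200c-3p, miR-323-5p, miR-377-5p and miR-672-5p at E13. Median-of-ratios scaling ended those of miR-18a-5p, miR-99b-5p, miR-137-5p, miR-143-5p, miR-181a-5p, miR-181c-3p, miR-323-3p, miR-341, miR-362-3p and miR-382-5p. Crossed runs ended those of miR-18a-5p, miR-92b-5p, miR-99b-5p, miR-137-5p, miR-181c-3p, miR-204-3p, miR-323-5p, miR-341, miR-362-3p, miR-377-5p and miR-382-5p. Counting only tags of at least 21 nt ended those of miR-32-5p, miR-99a-3p, miR-143-5p, miR-204-3p, miR-382-5p and miR-501-3p at E10. At E13 it ended those of miR-1949, miR-200b-5p, miR-30c-2-3p, miR-323-3p, miR-323-5p, miR-369-5p, miR-411-5p, miR-485-5p and miR-540-3p.

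**Figure D3:**
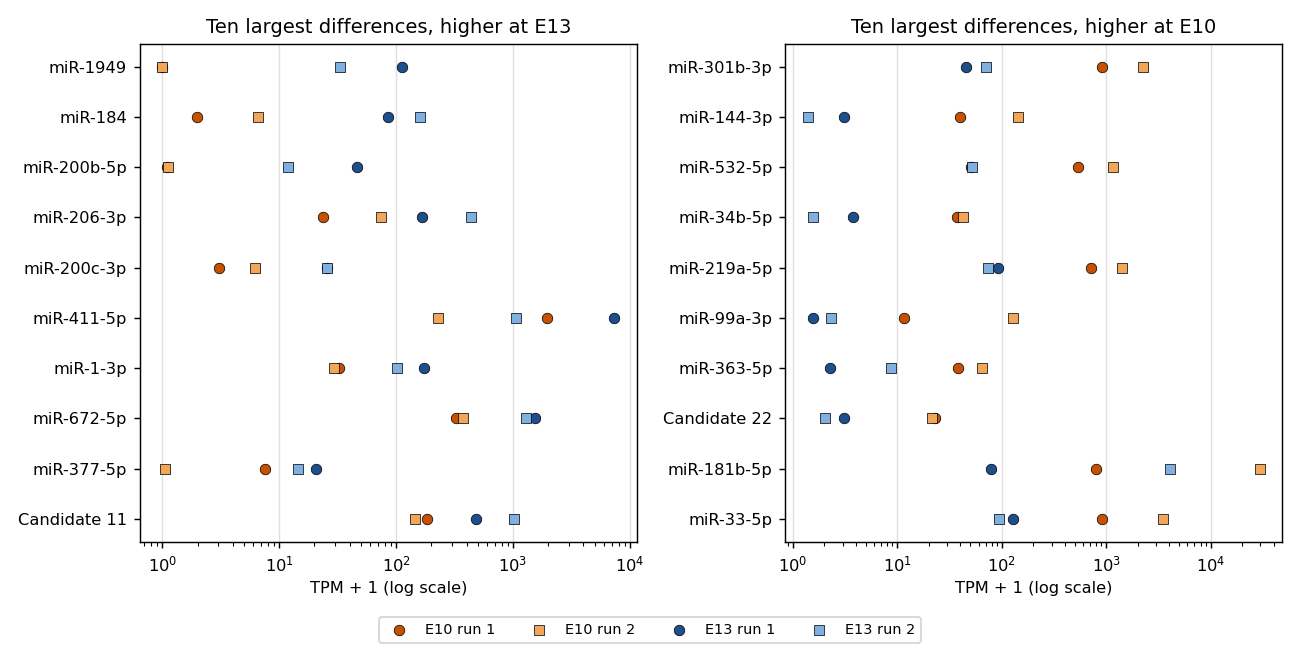
Level of the 10 miRNAs with the largest difference in each direction, as TPM + 1 on a log axis, with 1 symbol for each of the 4 libraries. Left, miRNAs higher at E13 (blue), led by miR-1949 and miR-184. Right, miRNAs higher at E10 (orange), led by miR-301b-3p. The 2 runs of miR-411-5p and of miR-181b-5p lie further apart than the stages do.

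The miRNAs higher at E13 were fewer and mostly of low level. miR-184, known from epithelia of the eye, was at 0.996 and 5.6 TPM at E10 (11 and 92 reads) and at 84.7 and 159 TPM at E13. This is 42.9-fold and 24.2-fold higher at E13, a difference kept under each of those 8 other ways, and at P0 miR-184 was again between 0.487 and 1.5 TPM. Its hairpin lies at chr8:99222982-99223058 (minus strand), and no other gene of the RefSeq table spans it.

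miR-206-3p and miR-1-3p, which share a seed and are hallmark miRNAs of muscle, were both higher at E13. miR-206-3p was at 22.5 and 73.7 TPM at E10 and at 166 and 439.8 TPM at E13, 7.13-fold and 5.9-fold higher. miR-1-3p was at 31.3 and 28.5 TPM at E10 and at 171 and 101 TPM at E13, 5.33-fold and 3.46-fold higher. Another sequence with this seed, miR-1b, was more abundant than either at E10 (609 and 549.7 TPM) and went the other way, to 349 and 459.5 TPM, within 2-fold in both runs. miR-672-5p, from an X-linked hairpin, was steady between runs at 326 and 373 TPM at E10 and at 1531 and 1286 TPM at E13. It was 4.68-fold and 3.44-fold higher at the later stage, and its 2 runs differed by only 0.19 and −0.25 log2 units within a stage.

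miR-1949 shows how the counting rule can set a value. No tag of it was seen in both E10 runs, so that it counted as 0 there, against 110.5 and 32 TPM at E13. When the tags seen in 1 run only are included, it had 23 and 19 reads at E10 (2.08 and 1.16 TPM), and E13 was 53.3-fold higher in run 1 (exact interval of the ratio 35.3 to 84.6) and 28.2-fold higher in run 2 (17.8 to 47.4). For miR-200b-5p, 1 and 2 counted reads at E10 gave ratios of 498 (interval 88.7 to 19728) and 89.4 (24.3 to 745), which became 49.8 (26.7 to 105) and 48.9 (18.7 to 182) with all tags. The single counted read of miR-377-5p in E10 run 2 likewise gave 219.9 (38.9 to 8736) and became 3.48 (2.61 to 4.7). All 3 remained at least 2-fold higher at E13 with all tags, by amounts that depend on the rule.

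The other large differences in this direction were those of miR-200c-3p, at 2.08 and 5.24 TPM against 24.8 TPM in both E13 runs, and of miR-411-5p. The latter comes from the large miRNA cluster of the imprinted Dlk1-Dio3 domain. It was at 1938 and 227 TPM at E10 and at 7354 and 1057 TPM at E13, so that each run gave a higher E13 level, by 3.79-fold and 4.64-fold, while E10 run 1 lay above E13 run 2. Pairing the runs crosswise ended this call. When only tags identical to the mature sequence were counted, 4 of the 16 miRNAs of this direction kept their call. In 7 the mean of both run differences changed sign, namely miR-200b-5p, miR-30c-2-3p, miR-323-3p, miR-369-5p, miR-411-5p, miR-485-5p and miR-540-3p. For miR-200b-5p and miR-485-5p it did so by little. Those that kept their call were miR-1-3p, miR-184, miR-206-3p and a hairpin candidate of the study, Candidate 11, at 183 and 144 TPM against 484 and 1024 TPM.

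The miR-181 group, a family of 4 paralogues studied in lymphocytes and in neurons, moved as a group. All 4 of its 5p forms were higher at E10, with differences between −2.09 and −3.44 log2 units. miR-181a-5p was at 5223 and 42610.2 TPM at E10 and at 719 and 10006 TPM at E13, 7.25-fold and 4.26-fold higher at the earlier stage. miR-181d-5p was at 4798 and 25085 TPM against 441 and 3975 TPM, and miR-181c-5p at 2542 and 3958 TPM against 482 and 903 TPM. In miR-181a-5p, miR-181b-5p and miR-181d-5p, however, the larger of the 2 gaps between runs of 1 stage exceeded the smaller stage difference. miR-181b-5p, at 790.3 and 29584 TPM at E10 and at 77.7 and 4054 TPM at E13, was 5.22 log2 units apart between the E10 runs and 5.69 between the E13 runs. The stage difference of miR-181b-5p, 10.1-fold and 7.3-fold, is therefore seen only when like runs are compared, and it was lost with crossed runs, as were those of miR-181a-5p and miR-181d-5p. miR-181c-5p, whose runs differed by 0.64 and 0.91 log2 units, kept its call there. The passenger strands did not follow together: of 5 measured 3p forms only miR-181c-3p was higher at E10, at 277 and 397 TPM against 75.2 and 188 TPM, while miR-181a-1-3p was at 154 and 93.2 TPM against 155 and 173 TPM.

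The group of miR-34 and miR-449, which is abundant in multiciliated cells and whose miR-34 members are targets of p53, had 1 seed as well. Of its 4 measured members 3 were higher at E10 in both runs. miR-34c-5p was at 5079.9 and 2722 TPM at E10 and at 90.04 and 643 TPM at E13, 55.8-fold and 4.23-fold higher at E10. miR-449a-5p was at 205 and 3963 TPM against 40.05 and 35.7 TPM, 5.02-fold and 108-fold. The size of the difference was thus uncertain by more than 10-fold in both, although the E10 runs lay above the E13 runs each time. The fourth member, miR-449c-5p, gave 402 and 64.2 TPM at E10 and 66.4 and 79.1 TPM at E13 and disagreed between runs. The 10 mature forms of this list summed to 5729 and 6809 TPM at E10 and 203 and 760 TPM at E13, with no overlap, and to between 29.2 and 408 TPM at P0.

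Members of 2 other seeds were also higher at E10. Of the 5 measured miRNAs with the seed of miR-25 and miR-92, miR-25-3p was at 4867 and 6371 TPM at E10 against 516 and 1744 TPM at E13, and the rare miR-32-5p was at 23.9 and 52.4 TPM against 2.66 and 1.33 TPM. The abundant miR-92a-3p stayed within 2-fold, at 7688 and 6070.5 TPM against 5366 and 5563 TPM. Of the 5 with the seed of miR-17, miR-106b-5p (1548 and 1339 TPM against 370.4 and 558 TPM) and miR-20b-5p (35.8 and 56.5 TPM against 15.3 and 6.11 TPM) were higher at E10, and miR-17-5p itself disagreed between runs. Among the 9 measured members of the let-7 seed only let-7g-5p differed, at 24822 and 25789.6 TPM at E10 and 3038 and 11151 TPM at E13. The calls of miR-25-3p, miR-34c-5p, miR-106b-5p and let-7g-5p ended with median-of-ratios scaling.

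**Figure D4:**
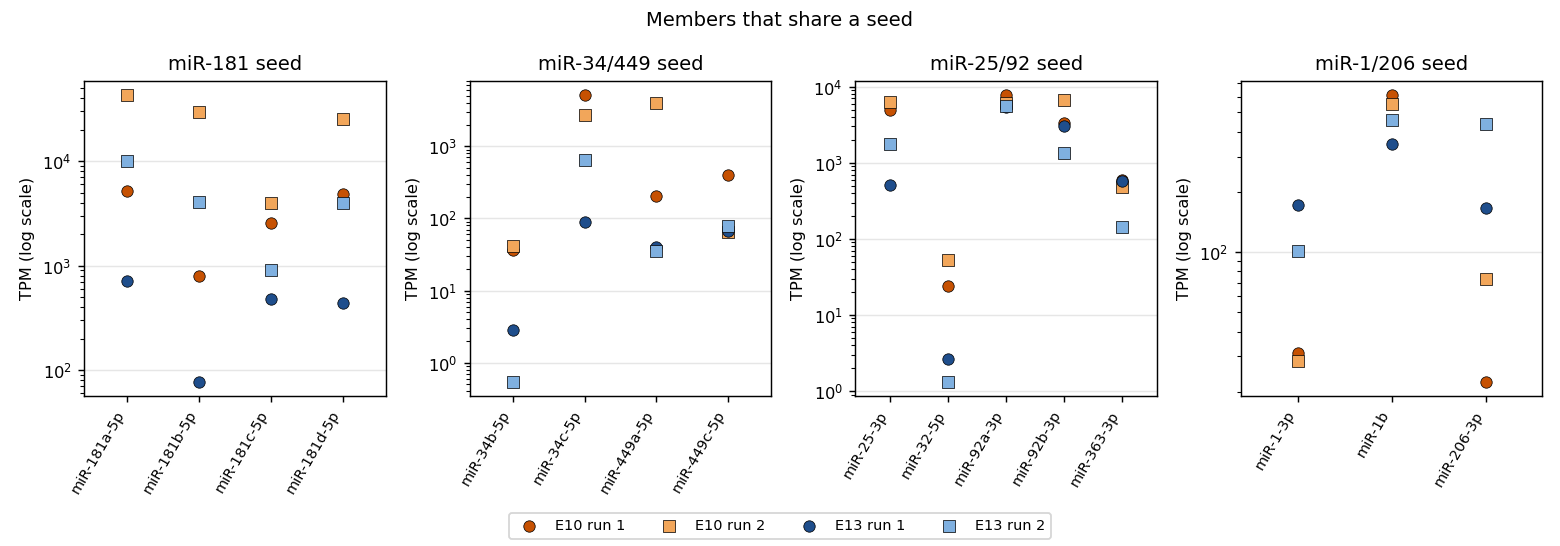
Level in TPM (log axis) of the members of 4 seed groups in the 2 runs of E10 (orange) and the 2 runs of E13 (blue). All miR-181 members have E10 above E13 within each run, with wide gaps between runs for all but miR-181c-5p, and in the group of miR-1 and miR-206 miR-1b goes against the other two.

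Lists of miRNAs grouped by what they are known for were followed through the same comparison, and each count is read against the 5.39% and 18.2% of all measured miRNAs. Of the 22 measured miRNAs of early neural and neuronal function, 4 were higher at E10 and none at E13, and 12 disagreed between runs. The 4 were miR-9a-5p, miR-137-5p, miR-219a-5p and miR-219a-1-3p. miR-9a-5p, a regulator of neural progenitors and one of the most abundant miRNAs here, was at 77582 and 55589 TPM at E10 and at 22812 and 14349 TPM at E13. It was 3.4-fold and 3.87-fold higher at E10 with closely agreeing runs, a call that ended with median-of-ratios scaling. The sequence of the primers for miR-124, the hallmark of neurons, was at 21807 and 21478 TPM at E10 and 15533 and 16895 TPM at E13, within 2-fold in both runs and below the 39726 to 160635 TPM of P0. With median-of-ratios scaling this list had 3 members higher at E13 and 1 at E10, and with tags of at least 21 nt none and 7, so its direction is not fixed.

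Of the 19 measured members of the let-7, miR-99/100 and miR-125 list, which marks advancing differentiation in many tissues, 3 were higher at E10 and none at E13. The 3 were let-7g-5p, miR-99b-5p and miR-99a-3p. With median-of-ratios scaling 2 were higher at E10 and 1 at E13. miR-99b-5p was at 8856 and 12868 TPM at E10 and at 3755 and 4916 TPM at E13. The summed level of the list was 333834 and 293951 TPM at E10 and 349457 and 372953 TPM at E13, near to each other and below the P0 range of 515828 to 674716 TPM. let-7c-5p, its most abundant member, was at 83268 and 98882 TPM at E10 and at 115290.0 and 157334 TPM at E13, 1.38-fold and 1.59-fold higher at E13.

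The miR-17-92 list and its paralogous clusters, which are linked to proliferation, had 18 measured members. 6 of them (miR-18a-5p, miR-20b-5p, miR-25-3p, miR-92a-1-5p, miR-106b-5p and miR-363-5p) were higher at E10 and none at E13, and 14 of the 18 were lower at E13 in both runs by any amount, against 124 of all 297. Their summed level was 21362 and 21973 TPM at E10 and 11792 and 11129.9 TPM at E13. The runs of each stage were close to each other and E10 was 1.81-fold and 1.97-fold higher, with P0 lower again at 2845 to 6308 TPM. With median-of-ratios scaling 4 members were higher at E10 and none at E13, and of the 6 the calls of miR-18a-5p, miR-25-3p and miR-106b-5p ended. Of 14 other measured miRNAs linked to proliferation, 3 were higher at E10 (miR-301b-3p, miR-92b-5p and miR-503-5p) and none at E13. miR-503-5p was at 3094 and 2278 TPM against 994 and 1121 TPM, a call that ended with median-of-ratios scaling and with scaling by named reads, and that of miR-92b-5p ended with the former. The miR-290 to miR-295 group, which marks pluripotent cells, had no measured member, and its 11 sequences summed to 4.44 and 13.1 TPM at E10 and 3.08 and 1.02 TPM at E13.

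The list of the Dlk1-Dio3 imprinted domain, whose miRNAs are expressed from the maternal chromosome, was the largest, with 51 measured of 82. Of the 9 gene lists it alone had members higher at E13 under the scaling used here. 6 were higher at E13 (miR-323-3p, miR-323-5p, miR-369-5p, miR-377-5p, miR-411-5p and miR-540-3p) and 4 at E10 (miR-341, miR-376a-3p, miR-382-5p and miR-540-5p). The 2 P0 samples differed in miR-323-3p by −1.02 and −1.44 log2 units, in miR-369-5p by −3.02 and −1.68 and in miR-411-5p by −3.45 and −1.47, against stage differences of 1.31 and 2.17, 3.14 and 1.08, and 1.92 and 2.21. The median difference of the 51 was 0.77 in run 1 and −0.24 in run 2, against −0.01 and −0.94 over all measured miRNAs. miR-323-3p was at 1646 and 733 TPM at E10 and at 4079 and 3303 TPM at E13, 2.48-fold and 4.5-fold higher. miR-376a-3p went the other way, from 783 and 2623 TPM to 293 and 207 TPM. When only tags of at least 21 nt were counted, 1 member was higher at E13 and 4 at E10, and with median-of-ratios scaling 10 and 2, so that the split of this list depends on tag length and scaling. In the genome a run of 31 hairpins, most of them of this list, lies at chr6:134543445-134579838 (plus strand), from Mir379 to Mir410, and 5 of the 35 measured miRNAs of that stretch were higher at E13 and 2 at E10.

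Against the 18.2% of all measured miRNAs that were higher at E10, some small clusters beside that of miR-532 had most of theirs so. They were picked for this from all clusters, and others had no differing miRNA, such as Mir770 to Mir136 with 10 measured and Mir24-1 to Mir23b with 5. Both hairpins of miR-144 and miR-451 at chr10:63459397-63459640 (plus strand) gave only miRNAs higher at E10, 3 of 3 measured. Both measured miRNAs of miR-34b and miR-34c at chr8:60306091-60306692 (minus strand) were higher at E10. Of 4 measured miRNAs of miR-181c and miR-181d at chr19:40888291-40888556 (plus strand), 3 were higher at E10. At miR-145 and miR-143, known from smooth muscle, 2 of 3 were higher at E10. The miR-25 and miR-93 hairpins lie together at chr12:22156641-22156930 (minus strand) within the span of Mcm7, a gene of DNA replication, and there miR-25-3p passed the rule while miR-93-5p, at 3469 and 3402 TPM against 2053 and 1614 TPM, was lower at E13 in both runs but by less than 2-fold in run 1. The other arm, miR-25-5p, was higher at E13 in both runs by less than 2-fold, at 282 and 396 TPM against 547 and 453 TPM.

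Markers of tissues other than the cortical wall were followed as lists of their own. The erythroid and blood list was higher at E10, with 3 of 4 measured members called and none in the other direction. miR-451-5p, made in red blood cells, was at 517 and 1576 TPM at E10 and at 128 and 66.8 TPM at E13, 4.02-fold and 23.3-fold higher at E10. miR-144-3p was at 39.1 and 142 TPM against 2.1 and 0.392 TPM, and miR-144-5p at 52.1 and 38.8 TPM against 14 and 3.52 TPM. The 8 sequences of the list summed to 684 and 1828 TPM at E10 and to 159 and 88.4 TPM at E13. These blood markers thus moved with the stage, and their part in the other differences was not tested.

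The muscle list moved the opposite way, 2 of 4 measured members being higher at E13, as given above for miR-206-3p and miR-1-3p. Its sums were 878 and 763 TPM at E10 and 1257 and 1141 TPM at E13. The defining miR-133a and miR-133b were at or near 0 in all 4 libraries, at no more than 0.28 TPM, and miR-208a had no read in any of the 4 libraries. The epithelial list also had 2 of 3 measured members higher at E13, miR-200b-5p and miR-200c-3p, but miR-203a-3p, a marker of skin, was at 122 and 96.6 TPM at E10 and 74.2 and 41.2 TPM at E13. The epithelial sums of 128 and 122 TPM at E10 and 149 and 81.1 TPM at E13 overlapped. miR-184, the other epithelial miRNA with a large difference, was not in that list, and whether more epithelium in the E13 tissue took part was not tested.

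Of the markers of mesenchyme and meninges, which the dissection was meant to remove, a few were abundant at both stages. The abundance was that of miR-199a-3p and miR-140-3p (23172 and 11948 TPM at E10, 21567 and 24791 TPM at E13), while miR-214-3p, at 6.34 and 81.7 TPM against 126 and 139 TPM, and miR-199a-5p, at 338 and 42.3 TPM against 206.3 and 226 TPM, were far lower. The 16 sequences of this list summed to 68542 and 34229.8 TPM at E10 and to 74683 and 58302 TPM at E13, against 3754 to 13201 TPM at P0. miR-199a-3p, a marker of mesenchyme, was among the 10 most abundant miRNAs of both stages, at 41905 and 17573 TPM at E10 and 50143 and 31809.9 TPM at E13. It was higher at E13 in both runs but by only 1.2-fold and 1.81-fold. Of 12 measured members 3 were higher at E10, namely miR-143-5p, miR-145-5p and miR-152-3p, and with median-of-ratios scaling 2 were higher at E10 and 1 at E13. miR-152-3p was at 545 and 2136 TPM at E10 and at 123 and 299 TPM at E13, 4.39-fold and 7.13-fold higher at E10, a call lost with crossed runs, and at P0 the 2 tissue samples differed in it by more than 4-fold. The tissue labelled forebrain thus carried the neural miRNAs miR-9a-5p and miR-124 at high level together with miR-199a-3p and miR-140-3p.

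The remaining vessel and eye markers were scarce. The endothelial miR-126a-3p was at 83.3 and 62.5 TPM at E10 and at 51 and 25.6 TPM at E13, lower at E13 in both runs without passing 2-fold in run 1. miR-204-5p, a marker of retinal pigment epithelium and choroid plexus, was at 112 and 389 TPM at E10 and 109 and 41.2 TPM at E13. Its 3p arm passed the rule at 12.3 and 261 TPM against 2.8 and 9.08 TPM, and most of its reads were in E10 run 2. The miR-183 cluster of sensory organs was higher at E13 in both runs, but its sums of 10.4 and 27.4 TPM at E10 and 340 and 43.5 TPM at E13 came to 32.6-fold in run 1 and 1.59-fold in run 2. Its 2 measured members did not pass the rule, but did with median-of-ratios scaling and with crossed runs.

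**Figure D5:**
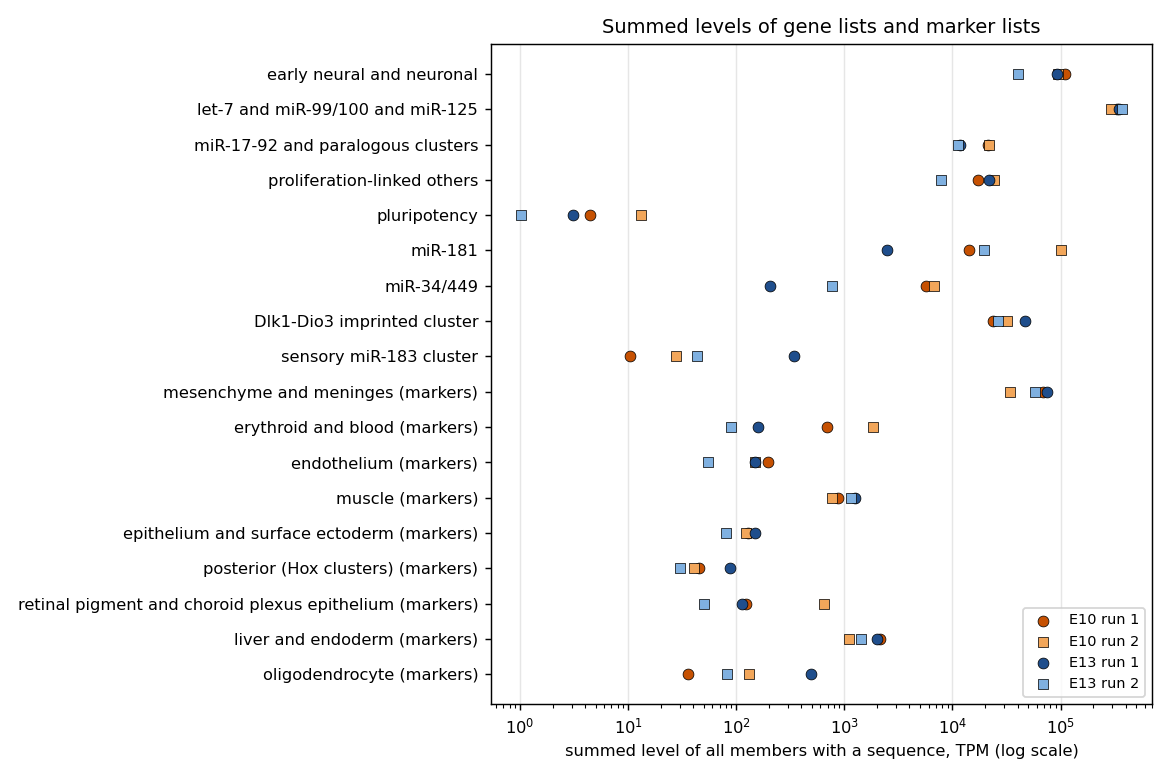
Summed level in TPM (log axis) of each gene list and marker list in the 4 libraries, over all members with a sequence. Both E10 runs (orange) lie above both E13 runs (blue) in the miR-34 and miR-449, miR-17-92, erythroid, early neural, pluripotency, endothelium and retinal pigment lists. Both E13 runs lie above both E10 runs in the muscle, let-7 and miR-183 lists. The mesenchyme list is as high at E13 as at E10.

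A few miRNAs dominated both stages. The 10 most abundant of each library took 65.7% and 57.9% of the named level in the E10 runs and 57.8% and 70.8% in the E13 runs. let-7a, let-7c, let-7e and let-7f, miR-9a-5p, miR-103-3p, miR-107-3p and miR-199a-3p were among the 10 highest by the mean of the runs at both stages, with let-7g-5p and miR-181a-5p at E10 and miR-140-3p and the sequence of primers labelled miR-99b at E13. Abundant miRNAs also differed between runs. miR-107-3p was at 46229 and 7128 TPM at E10 and 14542 and 28437 TPM at E13, lower at E13 in run 1 and higher in run 2. A tag that fits several mature sequences counts for each, and over the 4 libraries 79% of the reads of miR-107-3p and 39% of those of miR-103-3p also fit another, so that their levels are not separate. The primer sequence labelled miR-99b was at 7556 and 4692 TPM at E10 and at 59598 and 2670.1 TPM at E13, more than 20-fold apart between the E13 runs. It is not the RefSeq sequence of miR-99b-5p, which was at 3755 and 4916 TPM at E13. The paper's most abundant miRNAs at E13 include miR-99a and not miR-99b.

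Several miRNAs of interest in the cortex did not hold in both runs. miR-7a-5p, abundant in neuroendocrine tissue and in neurons, was at 1412 and 2103 TPM at E10 and at 20158 and 1293 TPM at E13, 14.3-fold higher at E13 in run 1 and 1.63-fold lower in run 2. miR-182 was at 6.16 and 16.2 TPM against 198 and 21.4 TPM, and miR-494-3p at 251 and 259 TPM against 1645 and 476 TPM. Both were higher at E13 in each run, by 27.8-fold and 1.3-fold and by 6.54-fold and 1.84-fold, and passed 2-fold in run 1 only. miR-3559-5p was at 3885 and 1449 TPM against 8115 and 1449 TPM, level in run 2. miR-3099, whose sequence the study lists as Candidate 55, was at 61.6 and 754 TPM against 115 and 234 TPM and disagreed between runs.

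Both arms were measured for 71 hairpins, and in 28 of them each arm had the same direction in the 2 runs. In 9 of these 28 the 2 arms went opposite ways. One was miR-540, whose 5p arm was higher at E10 (73 and 38.5 TPM against 14 and 6.27 TPM) and whose 3p arm was higher at E13 (35.1 and 73.3 TPM against 227 and 189 TPM). It was the only hairpin with both arms past 2-fold in opposite directions, and neither call held under all 8 other ways. The 3p difference reversed with tags identical to the mature sequence and with tags of at least 21 nt, and its call ended when all tags of the library were counted. The 5p call ended with identical tags. For miR-382 the 5p arm was higher at E10, at 845 and 2853 TPM against 264 and 968 TPM, while the 3p arm gave 6416 and 718 TPM at E10 and 9157 and 5095 TPM at E13. In 3 hairpins both arms were called in the same direction.

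The 5′ start of a miRNA sets its seed. Over the 108 miRNAs with at least 100 TPM in all 4 libraries, the median share of reads with a start other than that of RefSeq was between 2.13% and 3.23%. The share moved by 10 points or more the same way in both runs in 2 miRNAs, or 1.85%. In miR-140-3p, known from cartilage, reads starting 1 base further in were already the main form, and other starts went from 86.7% and 64.8% at E10 to 97.6% and 92.1% at E13. The level of the form as in RefSeq was 3087 and 4200.2 TPM at E10 and 509 and 1947 TPM at E13, while the form 1 base further in was at 19479 and 7549 TPM and at 20684 and 22277 TPM. The leading tag of each form is shown with positions 2 to 8 in capitals.

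miR-140-3p, start as in RefSeq: uACCACAGgguagaaccacg
miR-140-3p, start 1 base further in: aCCACAGGguagaaccacgga

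In miR-135a-3p other starts went from 54.8% and 46.7% at E10 to 15.4% and 24.3% at E13. The form as in RefSeq was at 473 and 384.5 TPM at E10 and at 1972 and 908 TPM at E13, and the form that starts 1 base earlier was at 569 and 334 TPM and at 357 and 288 TPM. E13 was higher for the first form and not for the second, and the stages did not overlap in the share of either miRNA.

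miR-135a-3p, start as in RefSeq: uGUAGGGAuggaagccaugaa
miR-135a-3p, start 1 base earlier: aUGUAGGGauggaagccaugaa

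Single tags were compared by the same rule, whether or not they fit a mature sequence. Of 2845 tags that reached 10 TPM in both runs of a stage, 932 (32.8%) were higher at E13 and 530 (18.6%) at E10. Most of the former fit no mature sequence searched: 765 of the 1600 unnamed tags were higher at E13, against 167 of the 1245 named ones. Tags that overlap can be pieces of the same RNA, so these are not counts of separate RNAs. Joined by 15 shared letters, the 1600 unnamed tags formed 360 families. Unnamed tags made up 73503 and 112142 TPM at E10 and 123173 and 195720 TPM at E13. Unnamed does not mean another kind of RNA. A family led by a tag with the seed of miR-30a-5p summed to 5940 and 9665 TPM at E10 and to 27909 and 5180 TPM at E13. The paper ranks miR-30d among its most abundant miRNAs at E13, and miR-30d was not measured here. Other leading unnamed tags have the seeds of let-7 and of miR-9a-5p. No reference for other kinds of RNA was at hand either, so the unnamed tags stay without a name or a place in the genome. Their sequences are given for the 5 largest differences in each direction by the counting rule.

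Higher at E13, tag 1: cgcgggaaatgtggcgtacggaag
Higher at E13, tag 2: cgggaaatgtggcgtacggaag
Higher at E13, tag 3: cgggaaatgtggcgtacggaaga
Higher at E13, tag 4: gcgggaaatgtggcgtacggaag
Higher at E13, tag 5: gaggtgtagaataagtgggaggccc
Higher at E10, tag 1: attcccggtcagggaacca
Higher at E10, tag 2: gtgtagtacttctgcctggccatctttt
Higher at E10, tag 3: gattatgacatttggaggcttttttt
Higher at E10, tag 4: ggctggtccgaaggtagtgagttatctcaa
Higher at E10, tag 5: tcaggtccctgttcgggcgcca

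The first 4 of the E13 tags are pieces of 1 stretch. Tag 1 had 10 and 2 reads at E10 (0.905 and 0.122 TPM) and 26077 and 461886 reads at E13 (3651 and 36172 TPM). When unnamed tags were joined into families by a shared run of 15 letters, the family of this tag held 41 tags, all 41 of them higher at E13. It summed to 9.51 and 11.4 TPM at E10 and to 14441 and 73505 TPM at E13, more than any single miRNA but let-7a-5p and let-7c-5p in E13 run 2. The family of tag 5 held 30 tags, also all higher at E13, with sums of 5.52 and 13.9 TPM at E10 and 7060 and 22024 TPM at E13. These reads are part of the total by which each level is divided. Scaling by the reads of named miRNAs alone, which leaves them out, gave 19 miRNAs higher at E13 and 52 at E10.

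Tags higher at E10 had another makeup. Of the 274 unnamed tags higher at E10, 20.1% ended in CCA, the letters added to the 3′ end of transfer RNAs. The share was 0.131% in the 765 higher at E13 and 6.94% in all 1600 unnamed tags. Unnamed reads ending in CCA were 1.37% and 3.66% of the E10 libraries and 0.767% and 0.807% of the E13 libraries. In the 2 runs of P0 sample 1, the same tissue, this share was 0.271% and 0.834%. A family of this kind held 18 tags, 16 of them ending in CCA and 12 higher at E10, and summed to 5354 and 9006 TPM at E10 and to 597 and 1860.1 TPM at E13. Its leading tag, shown here, was at 2633 and 5244 TPM at E10 and at 211 and 592 TPM at E13.

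Leading tag of the family ending in CCA: tcgtttccggctcgaaggacca

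Other families with CCA ends did not follow it as a whole. In one of 30 tags, 16 of them ending in CCA, 5 were higher at E10 and 1 at E13. It summed to 3735 and 3633 TPM at E10 and to 4288 and 2253 TPM at E13. One of 11 tags, 5 of them ending in CCA, had 4 tags higher at E13 and 1 at E10. It summed to 461 and 5437 TPM at E10 and to 628 and 686 TPM at E13. Its leading tag, which ends in CCA, was lower at E13 in both runs, at 121 and 2234 TPM against 88.1 and 197 TPM. One of 9 tags, 5 of them ending in CCA, had none called.

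Tag 4 of those higher at E10 was at 37.5 and 432 TPM at E10 and at 0.28 and 3.68 TPM at E13, and the tags 1 and 3, which were not counted at E13 because 1 of its runs held none, were at 88.2 and 62.1 TPM and at 39.6 and 43.1 TPM at E10. E13 run 1 held no read of either and E13 run 2 held 71 and 82 reads, which the rule left out, and their rank depends on it.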

How the data were processed

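Small RNA of rat forebrain at E10 and E13 (1 tissue sample a stage, 2 technical runs each) was sequenced for the study by a sequencing provider on the Illumina platform. Adapters and low-quality reads had been removed, and the authors deposited, for each library, the count of every distinct tag. The study's own mapping and annotation of the tags were not used here. From these counts, tags were matched without mismatch to 692 RefSeq mature miRNAs (GRCr8), 2 sequences behind the study's primers and 99 hairpin candidates of the study. A tag counted for a mature sequence when its 5′ end lay within 3 nt, its 3′ end ran over by no more than 3 nt and its length was 18 nt or more, and when it was seen in both runs of the stage. Levels are TPM of all clean reads. Differences are log2 ratios of TPM + 1, with the run 1 libraries compared with each other and the run 2 libraries likewise. A miRNA was measured at 10 TPM in both runs of a stage and called at 2-fold in both runs in the same direction. Runs of 1 tissue sample are no biological replicates, so no test was made. Library totals of 7141578 to 16420636 reads make 3 reads worth 0.183 to 0.42 TPM. Intervals are exact binomial ones at 95%.

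Named miRNAs are the 10 with the largest difference in each direction by the smaller run difference, the 10 most abundant of each stage, up to 4 members of each list with the highest mean level, and those the study follows at these ages. Other named miRNAs, such as cluster and seed mates and those whose call held under all alternatives, were chosen after their values were seen. The members and lists were chosen with earlier results of these data known. Unnamed tags were joined into families by 15 shared letters and were not placed in the genome. The matching was tested on tags cut from mature sequences, and the calls on simulated counts with 200 changed miRNAs. The simulation held counting error only and not the run-to-run error of these libraries. Alternatives changed the scaling, the tags counted, the pseudocount, the minimum level, the fold and the pairing of the runs. Python 3.11.15, pandas 2.3.3, numpy 2.4.6, scipy 1.17.1 and matplotlib 3.10.9 were used.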

Additional observations from a re-analysis of the deposited data

How the results depend on the processing

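No paired test was made because the results come from no test, so that there is no fit to take a block. Runs were compared by their number, and with crossed runs 11 of the 16 and 35 of the 54 calls were kept. Of the 16 miRNAs higher at E13 and the 54 higher at E10, 4 and 11 kept their call under all 8 alternatives of scaling, tags, pseudocount and run pairing (higher at E13: miR-1-3p, miR-184, miR-206-3p and Candidate 11). The count higher at E13 was 36 with median-of-ratios size factors, 5 with tags identical to the mature sequence, 7 with tags of at least 21 nt (chosen after seeing the data), 27 with no minimum level, 10 at 100 TPM or more, 27 at 1.5-fold and 5 at 4-fold. The count higher at E10 was, in the same order, 38, 52, 76, 81, 32, 79 and 22. With 1 run only, 29 to 116 miRNAs were higher at E13 and 86 to 190 at E10. With run 1 alone these were 116 and 86, with run 2 alone 29 and 190. The median difference, −0.51 over both runs, was −1.21 with identical tags and between −1.21 and 0.11 with 1 run only. With identical tags the mean of both run differences changed sign in 7: miR-200b-5p to −0.15, miR-30c-2-3p to −2.29, miR-323-3p to −1.78, miR-369-5p to −1.88, miR-411-5p to −1.18, miR-485-5p to −0.17 and miR-540-3p to −1.80. Among these, miR-200b-5p was then no longer measured. With tags of at least 21 nt, miR-30c-2-3p went to −0.62, miR-323-3p to −1.24, miR-369-5p to −1.10 and miR-540-3p to −1.28. At 100 TPM or more, 126 single tags were higher at E13. The number of single tags called higher at E10 was 110 at 100 TPM or more, 283 at 4-fold and 850 to 944 with 1 run only. The cause was not tested. Tags that fit 1 mature sequence only, also chosen after seeing the data, gave 16 and 54.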

Other observations

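Of 99 hairpin candidates of the study, 77 had a read in all 4 libraries and 7 were measured. Of these, Candidate 11 was higher at E13 and Candidate 22 at E10, as given above. Markers of organs outside the forebrain were mostly low. The liver and endoderm list, with 3 measured members and none called, summed to 2128 and 1094 TPM at E10 and to 1994 and 1410.2 TPM at E13, nearly all of it miR-192-5p (2075 and 984 TPM against 1896 and 1347 TPM). The liver miRNA miR-122-5p was at 35.6 and 55 TPM at E10 and at 52.5 and 15.3 TPM at E13. miR-10a-5p, from a Hox cluster of the posterior body, was at 39.4 and 28.1 TPM against 18.2 and 25.2 TPM. Its relative miR-10b-5p was at 5.07 and 7.98 TPM against 67.5 and 4.23 TPM, and the posterior list, with 1 measured member, summed to 45.3 and 40.7 TPM at E10 and to 86.5 and 29.9 TPM at E13, opposite in the 2 runs. The oligodendrocyte list summed to 35.9 and 132 TPM at E10 and to 491 and 82.5 TPM at E13, opposite in the 2 runs.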
